A study of Mus musculus with 2 samples.

Results

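The genes described here are 8 secreted antagonists of Wnt signalling, namely *Sfrp1*, *Sfrp2*, *Sfrp4*, *Frzb*, *Wif1*, *Dkk2*, *Dkk3* and *Sost*, taken by symbol from the 32285 genes of each library. All 8 are listed in both libraries. Of them, 6 had at least 1 unique molecular identifier (UMI, a tag that counts each captured transcript once) in a kept cell of the intact library, 7 in the callus library, and *Sost* had none in either. A cell was kept if it had 500 or more detected genes and no more than 10% of its UMIs in mitochondrial genes.

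Cells sorted for tdTomato were sequenced on the 10× Chromium 3′ platform. They came from Clec3b.creERT2; Ai14.R26.tdTomato mice. In this line CreERT2 is joined behind the coding sequence of *Clec3b* by a self-cleaving peptide, and after tamoxifen the cells that express *Clec3b*, with their descendants, carry tdTomato. The intact library came from unfractured femoral diaphyses with the muscle around them and the callus library from fracture calluses, both taken 3 weeks after surgery from littermate males. The mice were 6 weeks old at surgery, which was a mid-diaphyseal osteotomy of the right femur held by an intramedullary pin. Specimens of 3 mice were pooled before digestion and sorting, so each condition is 1 library, the mice cannot be told apart, and no difference between the libraries has a replicate check or a test.

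Wnt ligands bind Frizzled receptors together with the coreceptors LRP5 and LRP6, which stabilizes β-catenin and lets it act with TCF/LEF factors on target genes. The antagonists act outside the cell at different points. The secreted Frizzled-related proteins (*Sfrp1*, *Sfrp2*, *Sfrp4* and *Frzb*) and *Wif1* bind Wnt ligands, whereas *Dkk2* and *Sost* bind the LRP coreceptors. *Dkk3* is a divergent relative of *Dkk2* whose role in Wnt signalling is less settled. In bone, Wnt signalling favours osteoblast differentiation, and sclerostin, the product of *Sost*, is made mainly by osteocytes.

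The intact library held 1207 kept cells with a median of 4939 UMIs and the callus library 3295 with a median of 6843, and the libraries shared 1 cell barcode. Marker lists that contain none of the 8 genes split these cells into classes. Despite the sort, 707 intact and 2316 callus cells carried haematopoietic markers, and 290 intact (24.0%) and 272 callus cells (8.25%) were stromal. Within the stroma, the gates found 228 intact and 150 callus *Pi16*-type fibroblasts, the adventitial fibroblasts of many tissues, and 44 intact and 29 callus *Col15a1*-type fibroblasts. They found 33 bone marrow stromal cells (BMSCs, marked by *Lepr*, *Cxcl12* and *Adipoq*) in the callus and 0 in the intact library. Osteoblasts (*Bglap*, *Ifitm5* and *Dmp1*) numbered 26 in the callus and 1 in the intact library, and tenocytes (*Thbs4*, *Cilp*, *Fmod* and *Comp*) 11 and 4. The other tenocyte markers of the gate were found in fewer of the tenocytes, *Tnmd* in 66.7%, *Scx* in 40%, and *Mkx* and *Kera* in 13.3% each. No chondrocyte was found, and 23 callus and 13 intact stromal cells met no gate. Levels below are UMIs summed over the cells of a type per 1000000 UMIs of those cells (CPM), and intervals are exact 95% intervals that cover counting error only. *Pi16*, itself 1 of the 8 markers of its gate, was found in 95.5% of *Pi16*-type cells and 19.0% of the other stromal cells, and *Col15a1*, likewise a gate marker, in 93.2% of *Col15a1*-type cells and 16.2% of the others. Median depth was near equal in *Pi16*-type cells (7410.5 UMIs intact and 7383.5 callus) and in *Col15a1*-type cells (7641.5 and 7593).

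The antagonists lay almost entirely in the stromal cells. Between 88.3% (*Dkk3*) and 97.0% (*Sfrp4*) of the UMIs of the 7 detected genes lay in the 562 stromal cells, out of 4502 kept cells. In the 2316 haematopoietic callus cells, the gene with most UMIs was *Sfrp4* with 9, and in the 707 intact ones again *Sfrp4* with 3. No estimate of free RNA was made, and the source of these few UMIs was not tested. With every cell thinned to 2000 UMIs (the share expected over all possible draws, shallower cells left out), 0.104% of haematopoietic callus cells carried *Sfrp4* and 0.0916% *Sfrp2*. Muscle cells held at most 1 UMI of any member in either library. Endothelial callus cells (97) held 13 UMIs of *Dkk2* and at most 1 of each other member.

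**Figure D1:**
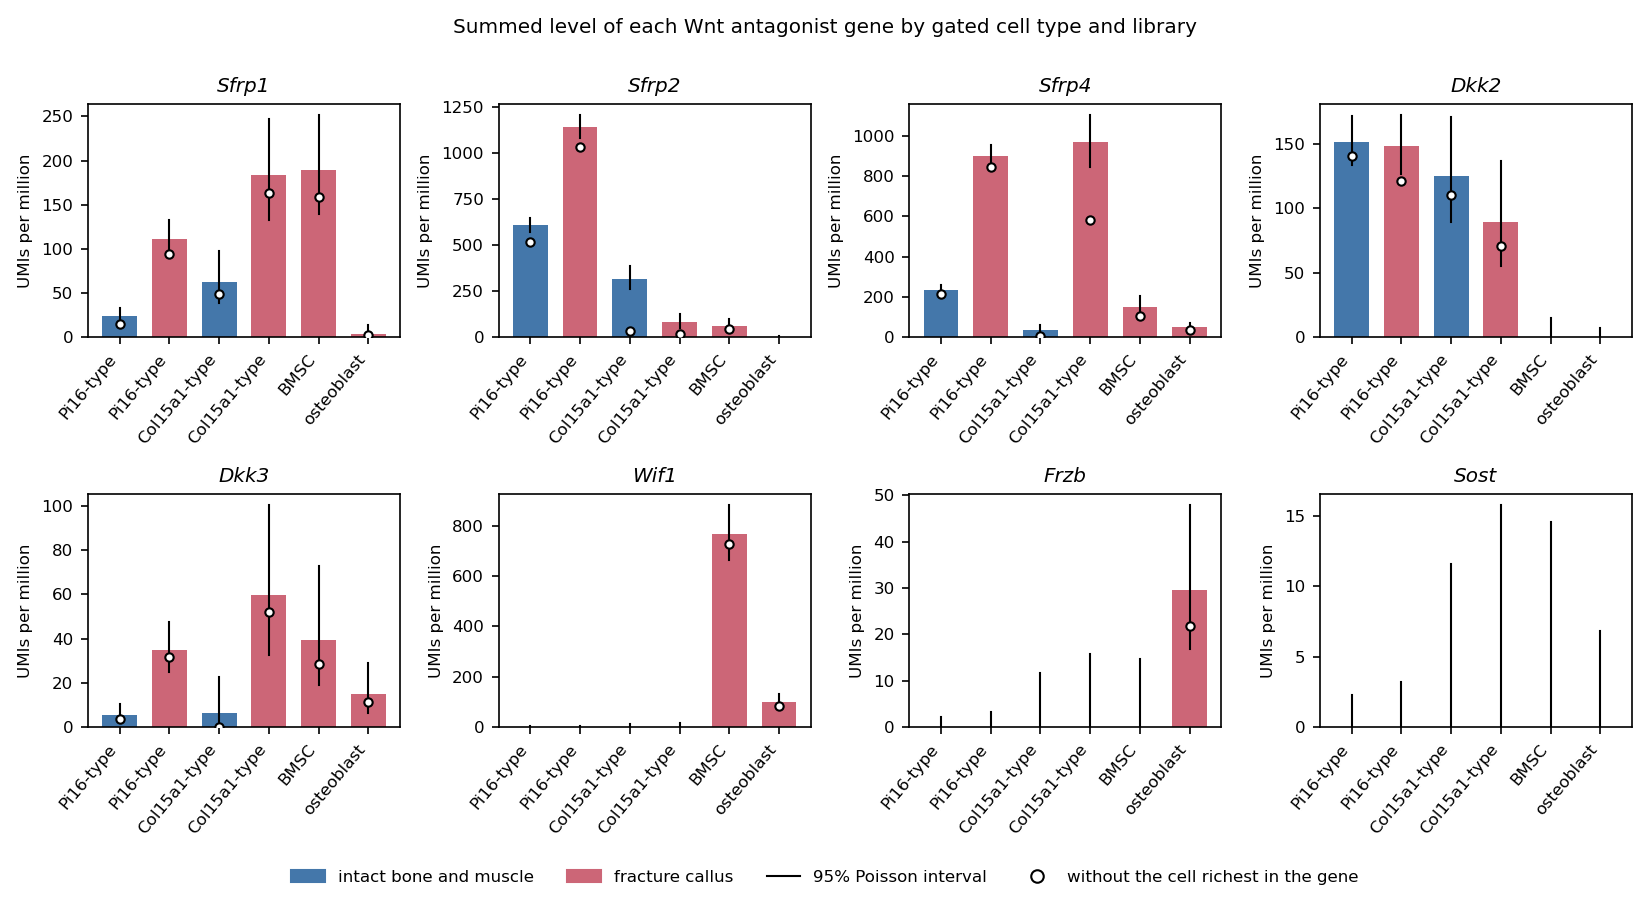
Each panel shows 1 gene, with the level in CPM on the y axis for 6 groups of cells on the x axis. Bars are intact (blue) or callus (red), lines are 95% Poisson intervals and open circles are the level without the cell richest in the gene. *Sfrp2* and *Sfrp4* lie mostly in fibroblasts, *Wif1* is at 767 CPM in BMSCs and at 0 in both fibroblast types, *Frzb* is seen in osteoblasts, and *Sost* is at 0 throughout.

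By UMI count, *Sfrp2*, *Sfrp4* and *Dkk2* were the main antagonists of the *Pi16*-type cells, which made up 78.6% of the intact and 55.1% of the callus stromal cells. These cells held 75.8% of the stromal *Sfrp2* UMIs of the intact library and 79.3% of those of the callus. Their share of stromal *Sfrp4* UMIs was 73.2% and 53.8%, and of *Dkk2* UMIs 64.8% and 74.7%, in the same order. Their share of UMIs exceeded their share of cells for *Sfrp2* and *Dkk2* in the callus, and was at or below it for *Sfrp4* in both libraries and for all 3 genes in the intact library. *Sfrp2* (GRCm38 chr3:83766321-83774316, plus strand) overlaps *Gm26771*, which is annotated on the other strand, and the other 7 genes overlap no annotated gene. *Dkk2* lies on the same chromosome and strand at chr3:132085292-132180304, and *Sfrp4* at chr13:19623104-19632994. The promoters of *Sfrp2* and *Dkk2* are shown because both genes had their highest callus CPM, among gated types of at least 15 cells, in *Pi16*-type cells and had 0 UMIs in osteoblasts. Each is the 250 bases before the RefSeq start on GRCm38.p6, on the strand of the gene, at chr3:83766071-83766320 for *Sfrp2* and chr3:132085042-132085291 for *Dkk2*. Capitals mark the core of the TCF/LEF motif, CTTTG, on either strand.

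Sfrp2: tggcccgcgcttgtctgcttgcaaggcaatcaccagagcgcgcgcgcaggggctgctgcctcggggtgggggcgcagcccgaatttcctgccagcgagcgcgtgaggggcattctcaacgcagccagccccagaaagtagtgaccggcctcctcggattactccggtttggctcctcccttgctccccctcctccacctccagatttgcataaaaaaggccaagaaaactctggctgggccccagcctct
Dkk2: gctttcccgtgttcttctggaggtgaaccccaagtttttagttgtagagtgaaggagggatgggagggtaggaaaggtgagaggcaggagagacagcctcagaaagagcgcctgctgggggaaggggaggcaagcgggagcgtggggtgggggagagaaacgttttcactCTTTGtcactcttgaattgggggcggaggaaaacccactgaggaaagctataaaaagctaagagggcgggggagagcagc

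The core is absent from this stretch of *Sfrp2* and stands in that of *Dkk2* with its first base 80 bases before the start. It is held by 48.6% of 32851 promoter stretches of that length, so a match is common. The *Dkk2* stretch also has the TATA box letters TATAAA at 32 bases before the start, on the strand of the gene, which 12.4% of promoters hold on either strand. Promoter sequences matched 5 of the 8 genes.

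The question put by the fracture is whether fibroblasts of the callus carry these inhibitors at other levels than fibroblasts of intact tissue. In *Pi16*-type cells, 5 members had the 20 UMIs over both libraries that a comparison required. Of these, *Sfrp1*, *Sfrp4* and *Dkk3* were at least 2-fold higher in the callus, *Sfrp2* was higher by less than 2-fold, and *Dkk2* was level. No member was 2-fold lower. Over all genes with as many UMIs, 3.69% of 9168 were at least 2-fold higher and 2.68% at least 2-fold lower. The median log2 ratio of the 5 members was 1.95, against 0.03 over all genes. Of the 5, *Dkk3*, with 9 UMIs intact and 40 in the callus, reached 20 UMIs only through the callus. The mix of cells differed as well. Of these cells, 39 of 150 in the callus and 7 of 228 in the intact library lay in cluster 4, described further on. The *Sfrp1* ratio within that cluster was 1.02 (0.72 to 1.47). In the other clusters compared it was 5.12 (1.64 to 18.8) in cluster 1 and 3.15 (1.07 to 10.4) in cluster 2, both from under 20 UMIs. In cluster 0 the *Sfrp1* ratio was 1.35 (0.47 to 3.43). The part of the mix in these ratios was not tested.

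*Sfrp4* was at 234 CPM in intact *Pi16*-type cells (211 to 258) and at 900 CPM in those of the callus (846 to 957). The intervals do not overlap, and the ratio was 3.85 (3.42 to 4.34). More cells carried the transcript, and those that did carried more of it. At least 1 UMI was found in 54.4% of the intact cells and 75.3% of those of the callus, and 10 or more UMIs in 5 of 228 intact and 26 of 150 callus cells. Thinned to 2000 UMIs a cell, the expected shares were 29.8% (23.7 to 36.5%) of 208 intact and 52.6% (44.2 to 61.4%) of 138 callus cells.

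*Sfrp2* was at 606 CPM intact (569 to 645) and 1140 CPM in the callus (1079 to 1203), a ratio of 1.88 (1.73 to 2.05). The share of cells with a UMI moved little, from 66.2% (59.7 to 72.3%) to 72.7% (64.8 to 79.6%). Thinned, the shares were 46.2% (39.2 to 53.2%) and 54.5% (45.7 to 62.8%), and these intervals overlap. The higher sum came from the upper end of the cells. Cells with 10 or more *Sfrp2* UMIs made up 10.5% of intact and 26.0% of callus cells, and held 56.1% and 81.8% of the type's *Sfrp2* UMIs.

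*Sfrp1*, at chr8:23411502-23449632, was at 24.0 CPM intact (17.1 to 32.8) and 111 CPM in the callus (92.8 to 132), a ratio of 4.64 (3.22 to 6.82). A single intact cell held 41.0% of the intact UMIs, and without it the intact level was 14.2 CPM. The transcript was found in 17 of 228 intact and 36 of 150 callus cells. *Dkk3*, at chr7:112116017-112159057, was at 5.54 CPM intact (2.53 to 10.5, from 9 UMIs) and 34.8 CPM in the callus (24.8 to 47.3), a ratio of 6.28 (3.00 to 14.7). It was found in 3.07% of intact and 16.0% of callus cells.

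*Dkk2* stood apart from the Frizzled-related genes. It was at 152 CPM intact (134 to 172) and 149 CPM in the callus (127 to 173), a ratio of 0.98 (0.80 to 1.19). The share of cells with a UMI was 34.6% (28.5 to 41.2%) intact and 27.3% (20.4 to 35.2%) in the callus, with overlapping intervals. Within the clusters described further on, however, the *Dkk2* ratio was below 1 in each of the 4 compared, at 0.67 (0.37 to 1.14) in cluster 1, 0.68 (0.44 to 1.03) in cluster 2, 0.88 in cluster 0, whose interval spans 1 as those of clusters 1 and 2 do, and 0.20 (0.16 to 0.26) in cluster 4. *Frzb*, *Wif1* and *Sost* had 0 UMIs in *Pi16*-type cells of both libraries, with intervals up to 2.27 CPM intact and 3.21 CPM in the callus.

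**Figure D2:**
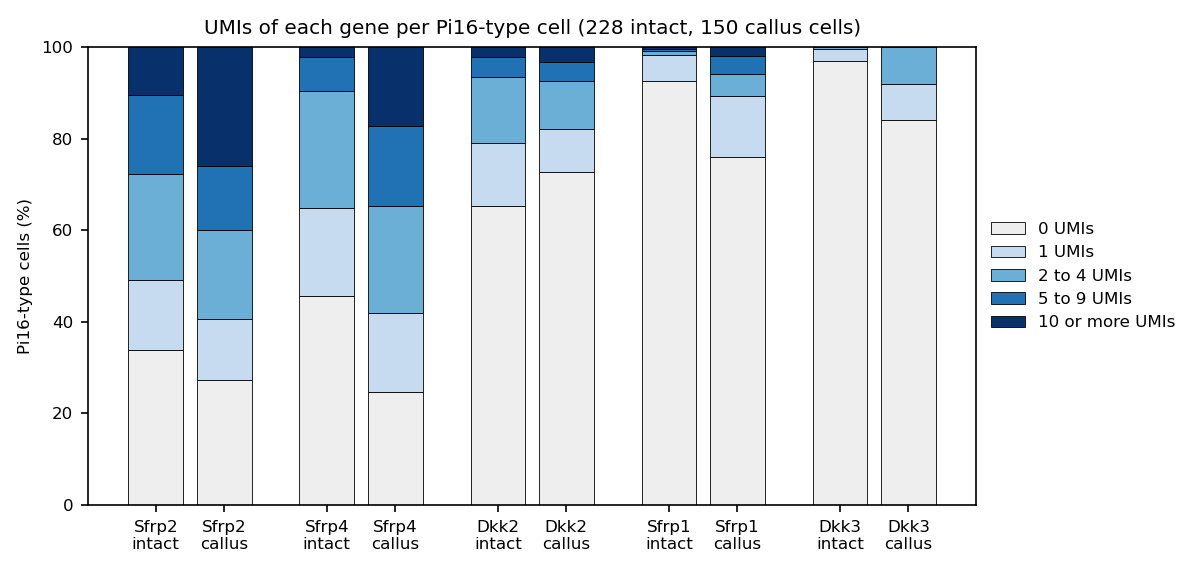
Stacked bars give the percentage of *Pi16*-type cells (y axis) with 0, 1, 2 to 4, 5 to 9, or 10 or more UMIs of each gene, for 228 intact and 150 callus cells. The darkest band, 10 or more UMIs, is wider in the callus for *Sfrp2* (26.0% against 10.5%) and *Sfrp4* (17.3% against 2.19%), and 3.33% against 2.19% for *Dkk2*.

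*Sfrp2* and *Sfrp4*, which are both Wnt-binding, were often carried by the same fibroblast. Both were found in 94 of the 228 intact *Pi16*-type cells and in 92 of the 150 in the callus. At 2000 UMIs a cell, the expected share with both was 17.5% (12.4 to 23.1%) intact and 35.1% (26.9 to 43.4%) in the callus. The product of the 2 genes' own shares is 13.8% and 28.7%, in the same order. Among *Pi16*-type cells, 18.9% of the intact library and 34.0% of the callus library carried at least 3 of the 8 genes, and 14.9% and 8.67% carried none.

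Tenocyte markers moved with these differences. The summed level of the 8 tenocyte markers in *Pi16*-type cells was 70.7 CPM intact, with *Scx* and *Kera* at 0, and 819 CPM in the callus, with *Scx*, *Mkx* and *Kera* at 0. At least 1 of these markers was found in 18 of 228 intact and 41 of 150 callus cells. In the cells with such a marker, *Sfrp4* was at 472 CPM intact (363 to 604) and 1691 CPM in the callus (1563 to 1828). *Sfrp1* was at 225 (152 to 321) and 258 CPM (209 to 314) in them, and 1 intact cell held 16 of the 30 intact UMIs. *Sfrp2* was at 2044 (1809 to 2302) and 1662 CPM (1534.5 to 1798), lower in the callus with intervals apart. The intact *Pi16*-type cell richest in *Sfrp2* held 149 UMIs, beside 273 in the 18 intact cells with a marker. The lower callus *Sfrp2* in cells with a marker may thus rest on 1 cell. In the 210 intact and 109 callus cells with none, *Sfrp4* was at 212 CPM (190 to 237) and 515 CPM (466 to 568). In those same cells *Sfrp2* was at 477 CPM (443 to 514) and 886 CPM (821 to 955), and *Sfrp1* at 6.03 CPM (2.76 to 11.5) and 40.0 CPM (27.2 to 56.8). The callus level was thus above the intact level, with intervals apart, for all 3 genes in cells without a tenocyte marker. *Dkk2* was at 101 CPM intact (85.7 to 119) and 81.4 CPM in the callus (62.5 to 104) in them. In the cells with such a marker *Dkk2* was at 719 CPM intact (582 to 878) and 287 CPM in the callus (235 to 346). Its callus level was thus the lower one in both sets of cells, with intervals apart only in those with a marker. *Dkk3* in the cells without a marker, with 5 and 12 UMIs, was at 3.35 and 15.5 CPM.

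Clustering of the 562 stromal cells on 1995 variable genes, with all 8 antagonists left out, gave 7 clusters that show where in the stroma the genes lay. Clusters 1 and 2 were mostly gated as *Pi16*-type, cluster 1 led by *Ptx3*, *Ccl2* and *Il6* and cluster 2 by *Stmn4*, *Dact2* and *Cd55*. Cluster 0, led by haemoglobin genes, *Cxcl14* and *Smoc2*, held 37 of the 44 intact *Col15a1*-type cells. Cluster 4, led by *Thbs4*, *C1qtnf3* and *Fmod*, met the gate of no type on average. It held 20 of the 29 callus and 7 of the 44 intact *Col15a1*-type cells, 39 of the 150 callus and 7 of the 228 intact *Pi16*-type cells, and 14 of the 15 tenocytes.

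Cluster 4 was where *Sfrp1*, *Sfrp4*, *Dkk2* and *Dkk3* were highest among the clusters with cells of both libraries. *Sfrp1* was at 232 CPM (165 to 318) in its 24 intact cells and 236 CPM (204 to 272) in its 84 callus cells. That is a ratio of 1.02 (0.72 to 1.47), and without the intact cell that held 41.0% of the intact UMIs the levels were 144 CPM intact and 212 CPM in the callus without its own richest cell. In clusters 1 and 2, *Sfrp1* was at 7.82 and 7.99 CPM intact and at 40.0 and 25.2 CPM in the callus, from at most 11 UMIs each. *Sfrp4* in cluster 4 was at 977 CPM intact (833 to 1138) and 1806 CPM in the callus (1715 to 1901). *Dkk3* there was at 53.6 CPM intact, from 9 UMIs, and 118 CPM in the callus, from 96, a ratio of 2.20 (1.11 to 4.96). In clusters 1 and 2 it had at most 3 UMIs per library, with ratios of 1.55 (0.13 to 13.5) and 1.72 (0.12 to 23.7).

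Within clusters, *Sfrp4* was higher in the callus in each of the 4 clusters compared. The ratio was 2.56 (2.05 to 3.20) in cluster 1, 1.74 (1.40 to 2.16) in cluster 2, 1.85 (1.57 to 2.19) in cluster 4 and 5.57 (2.41 to 13.6) in cluster 0, the last from 10 intact and 17 callus UMIs. *Sfrp2* did not keep 1 direction. It was 2.90-fold higher in the callus in cluster 1 (2.49 to 3.39), where it went from 468 to 1358 CPM. In cluster 2 it went the other way, from 510 to 364 CPM, a ratio of 0.71 (0.59 to 0.86). In cluster 4 it was at 3240 CPM intact and 1306 CPM in the callus, a ratio of 0.40 (0.36 to 0.45), and *Dkk2* was at 965 and 197 CPM, a ratio of 0.20 (0.16 to 0.26). The intact side of cluster 4 has only 24 cells, and without the cell richest in each gene *Sfrp2* was at 2474 and *Dkk2* at 790 CPM there. Intact cells with 149, 120 and 91 *Sfrp2* UMIs held most of the 544 of that side. The lower callus *Sfrp2* of cluster 4 thus rests on few intact cells.

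Read against all genes, cluster 1 had *Sfrp2* and *Sfrp4* among the 3.47% of 5729 genes that were at least 2-fold higher in the callus, and no member among the 6.51% that were lower. Cluster 2 had no member 2-fold apart, where 3.23% of 6900 genes were higher and 3.23% lower. In cluster 4, 14.1% of 6269 genes were at least 2-fold higher and 4.98% lower, with *Wif1* and *Dkk3* among the former and *Sfrp2* and *Dkk2* among the latter. *Wif1* lay in 4 of the 84 callus cells of cluster 4, and a single cell held 58.9% of its UMIs. Without that cell the callus level fell from 68.9 to 28.6 CPM. The 24 intact cells had 0 UMIs of *Wif1*, with an interval up to 22.0 CPM, so its place among the higher genes rests on that cell. In cluster 0, 5.82% of 4315 genes were higher and 8.81% lower, with *Sfrp2* and *Sfrp4* among the higher. *Sfrp2* there was at 57.2 CPM intact and 141 CPM in the callus, where 1 cell held 94.4% of the 18 UMIs, and without the richest cell of each library it was at 39.2 and 8.88 CPM.

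**Figure D3:**
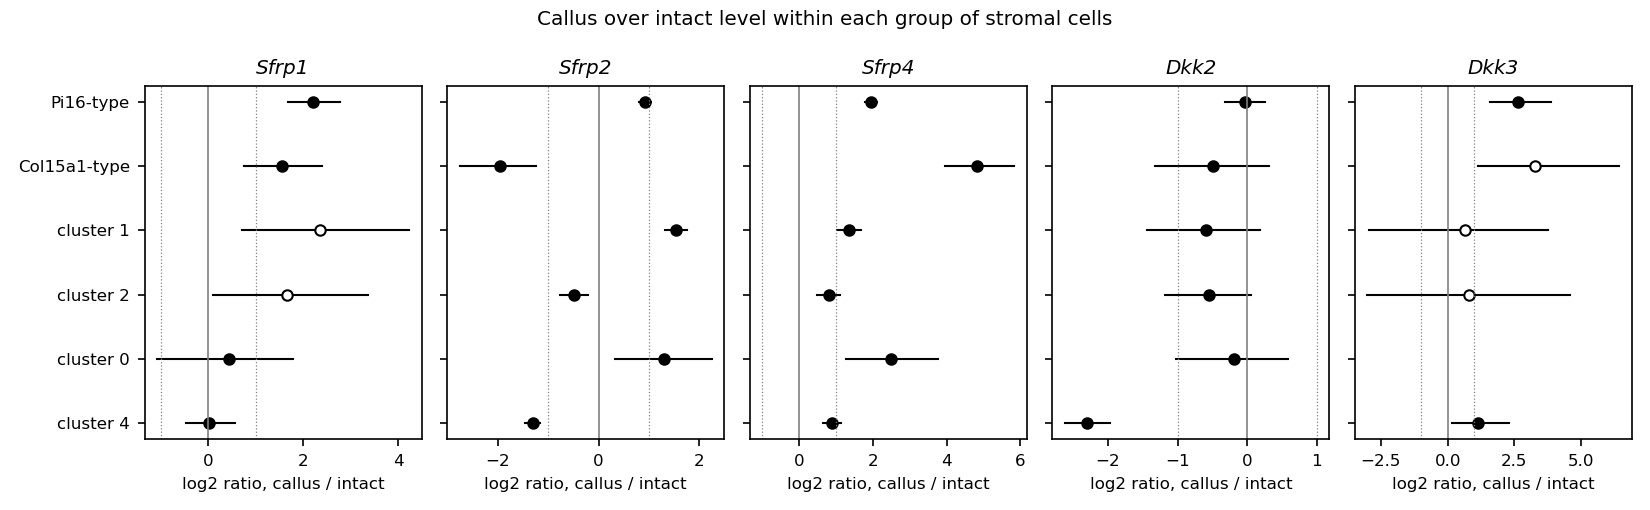
The x axis of each panel is the log2 ratio of the callus level over the intact level, for both gated fibroblast types and 4 clusters (rows). Points are ratios, lines 95% intervals for counting error, open points rest on under 20 UMIs, and dotted lines mark 2-fold. *Sfrp4* lies above 0 in every row, *Sfrp2* above 0 in clusters 0 and 1 (in cluster 0 by 1 callus cell) and below 0 in clusters 2 and 4 (in cluster 4 by few intact cells), and *Dkk2* below 0 in cluster 4 at −2.29.

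Many values of the *Col15a1*-type fibroblasts rest on few cells. In the callus against the intact library, 4 members had 20 UMIs, with *Sfrp1* and *Sfrp4* at least 2-fold higher, *Sfrp2* at least 2-fold lower and *Dkk2* between. *Sfrp4*, with 11 intact UMIs, reached 20 only through the callus, and *Sfrp2*, with 19 callus UMIs, only through the intact cells. Over all genes, 8.91% of 4455 were higher and 5.61% lower. *Sfrp1* was at 62.8 CPM intact (38.3 to 97.0, 13 of 44 cells) and 184 CPM in the callus (133 to 247, 13 of 29 cells), a ratio of 2.92 (1.68 to 5.25). In cluster 0, which stands for this type when clusters replace the gates, the *Sfrp1* ratio was 1.35 (0.47 to 3.43) and no longer past 2-fold. *Sfrp4* was at 34.5 CPM intact, in 3 cells, and 969 CPM in the callus, in 15 cells. One intact cell held 81.8% of the intact *Sfrp4* UMIs and 1 callus cell 42.3% of the callus ones, and without them the levels were 6.48 and 584 CPM.

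For *Sfrp2* in these cells the sum describes single cells rather than the type. It was found in 3 of 44 intact cells, of which 1 held 90.1% of the UMIs, and the level of 317 CPM was 32.4 CPM without that cell. In the callus it was found in 5 of 29 cells at 81.1 CPM, and at 18.8 CPM without the richest. *Dkk2* was spread more evenly, at 126 CPM intact (89.7 to 171, 17 cells) and 89.7 CPM in the callus (55.5 to 137, 8 cells). The cells compared were of different clusters, cluster 0 for the intact and cluster 4 for the callus library, as counted above. The tenocyte markers summed to 603 CPM intact, with *Scx*, *Mkx* and *Kera* at 0. They summed to 3428 CPM in the callus, with *Fmod*, *Scx*, *Tnmd*, *Mkx* and *Kera* at 0. In the 20 intact and 6 callus cells with no tenocyte marker, 1 member remained 2-fold apart, *Sfrp4*, which had 1 UMI in the intact cells, and *Sfrp1* and *Sfrp2* had too few UMIs to compare.

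Set against *Pi16*-type cells of the same library, intact *Col15a1*-type cells had less *Sfrp4* and more *Sfrp1*. *Sfrp4* was 6.77-fold lower (3.74 to 13.7) and *Sfrp1* 2.62-fold higher (1.45 to 4.60). These 2 of the 4 members with enough UMIs were 2-fold apart, where 7.97% of 8255 genes were higher and 12.2% lower. *Sfrp2* was 1.91-fold lower (1.56 to 2.37) with the cell named above counted, a log2 ratio of −0.93. Without the richest cell of each group the log2 ratio was −4.00 for *Sfrp2*, which brings the count to 3, and −5.06 for *Sfrp4*, against −2.76 with all cells. In the callus library, *Sfrp2* alone of 5 members was 2-fold apart, 14.1-fold lower (8.96 to 23.4), where 7.70% of 7478 genes were higher and 9.51% lower. The summed *Sfrp4* was level there, with a ratio of 1.08 (0.93 to 1.24), at 584 CPM in *Col15a1*-type and 844 CPM in *Pi16*-type cells without the richest cell of each. The cells were not alike, since 3 of 29 *Col15a1*-type cells held 89.9% of that type's *Sfrp4* UMIs. At least 1 UMI was found in 51.7% of *Col15a1*-type and 75.3% of *Pi16*-type cells. The log2 ratio ran from −1.87 to 2.27 over 8 alternatives, of which 5 kept its sign.

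Tenocytes, 11 in the callus and 4 in the intact library, were too few to compare between libraries and are given as values. *Sfrp4* was at 3121 CPM in the callus cells and 2500 CPM in the intact ones, and *Sfrp2* at 1491 and 2463 CPM. *Dkk3* was found in 8 of the 11 callus tenocytes at 183 CPM. *Wif1* was found in 3 of the 11 at 479 CPM, and at 209 CPM without the richest of them.

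The bone-lineage cells of the callus carried a different set. *Wif1*, which binds Wnt ligands through its own WIF domain, had 194 UMIs in the 33 BMSCs, a level of 767 CPM (663 to 882), and was found in 26 of them (78.8%). Thinned to 2000 UMIs, the expected share was 63.2% (43.7 to 78.9%) of 32 cells. In *Pi16*-type cells of the same library it had 0 UMIs in 150 cells, so that BMSCs were 294-fold higher with the 0 taken as 3 UMIs over the group. The richest cell held 10.8% of the BMSC *Wif1* UMIs, so no single cell set the level. These cells also held osteoblast markers, at a median of 15 UMIs per cell, beside 172 UMIs of the BMSC markers. No BMSC was found in the intact library, and a comparison between libraries was not possible.

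*Wif1* lies at chr10:121033960-121100650 on the plus strand and *Frzb* at chr2:80411970-80447625 on the minus strand. Both had 0 UMIs in both fibroblast types of both libraries and were seen in bone-lineage cells, *Wif1* also in 3 of the 11 callus tenocytes. Their RefSeq starts lie inside the GENCODE bounds just given, so that of the 250 bases before the RefSeq start 44 lie inside *Wif1* and 229 inside *Frzb*. The promoter of *Wif1* is shown because it led the BMSCs, as the 206 bases outside the gene, at chr10:121033754-121033959 of GRCm38.p6, with CTTTG in capitals.

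Wif1: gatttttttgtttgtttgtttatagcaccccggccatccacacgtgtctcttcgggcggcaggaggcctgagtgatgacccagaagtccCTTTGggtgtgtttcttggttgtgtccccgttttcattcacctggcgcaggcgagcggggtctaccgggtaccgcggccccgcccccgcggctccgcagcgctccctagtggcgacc

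The core begins 161 bases before the RefSeq start in *Wif1*. In *Frzb* it begins 94 bases before the RefSeq start, on the opposite strand and inside the gene as GENCODE bounds it. The full 250 bases hold 21 and 16 CpG dinucleotides, against 16 in *Sfrp2*, 7 in *Dkk2*, 6 in *Sost* and a median of 6 over all promoters. The core thus stands in the stretches of *Wif1*, *Frzb* and *Dkk2* and not in those of *Sfrp2* and *Sost*, the remaining matched genes. A link between the core and the cells that carry each gene was not tested.

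Beside *Wif1*, BMSCs carried *Sfrp1* in 24 of 33 cells at 190 CPM (140 to 251), *Sfrp4* in 15 cells at 150 CPM (106 to 206) and *Dkk3* in 8 cells at 39.5 CPM (18.9 to 72.7). *Sfrp2* was found in 5 cells at 59.3 CPM. *Dkk2*, found in all fibroblast groups, had 0 UMIs in BMSCs, with an interval up to 14.6 CPM. Against *Pi16*-type callus cells, 6 members had 20 UMIs, and 1 of them (*Wif1*) was at least 2-fold higher and 3 lower, where 15.7% of 7759 genes were higher and 14.7% lower. *Wif1* (194 against 0) reached 20 UMIs through the BMSCs. *Dkk2* (0 against 171), *Sfrp2* (15 against 1312) and *Dkk3* (10 against 40) did so through the *Pi16*-type cells. *Sfrp2* was 19.2-fold lower (11.6 to 34.5), *Sfrp4* at 0.17 times their level (0.12 to 0.23) and *Dkk2* 12.5-fold lower with its 0 taken as 3 UMIs. *Sfrp1* was 1.71-fold higher (1.20 to 2.39), and the ratio of *Dkk3* was 1.14, with an interval from 0.51 to 2.31.

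*Wif1* and *Sfrp1* were found together in 19 of the 33 BMSCs, and 2 cells had neither. At 2000 UMIs a cell the expected share with both was 22.8% (9.28 to 40.0%), beside a product of their own shares of 21.9%. Of the 33 BMSCs, 16 carried at least 3 members and 1 carried none.

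In osteoblasts, *Wif1* was found in 16 of 26 callus cells at 99.5 CPM (74.7 to 130), 7.71-fold below BMSCs (5.67 to 10.6). *Frzb*, a Frizzled-related gene, had 16 UMIs in 8 of these cells, 29.5 CPM (16.8 to 47.9), and 20 UMIs in all 4502 kept cells. Of the 26 cells, 7 held *Sfrp4*, with 26 UMIs at 47.9 CPM, and 5 held *Dkk3* at 14.7 CPM. *Sfrp1* had 2 UMIs, and *Sfrp2* and *Dkk2* had 0, with intervals up to 6.80 CPM. By cluster, 21 of the cells lay in cluster 5, led by *Bglap*, 4 in cluster 6 with the BMSCs, and 1 in cluster 3. Those 21 held 7 *Sfrp4* UMIs in 3 cells, at 14.1 CPM (5.67 to 29.0), and 0 *Sfrp1* UMIs. The 1 osteoblast of the intact library had 0 UMIs of every member.

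The 3 members with 20 UMIs over both groups were at least 2-fold lower in osteoblasts than in BMSCs, where 7.26% of 4874 genes were higher and 40.4% lower. *Frzb* fell short of 20 UMIs, with 16 in osteoblasts and 0 in BMSCs. *Sfrp2*, with 0 and 15, and *Dkk3*, with 8 and 10, fell short as well. *Sfrp1* reached 20 UMIs through its 48 in BMSCs. A lower value is common in this comparison, in which the median log2 ratio of all genes was −0.75 and that of the 3 compared members −2.95. *Sfrp1*, with 2 UMIs, was at 3.68 CPM, 51.5-fold lower (13.5 to 437). *Sfrp4* was 3.13-fold lower (1.85 to 5.38). Most osteoblast UMIs of *Sfrp4*, and all of *Sfrp1*, lay in the cells outside cluster 5. The stromal markers, mostly collagens, summed to 259722 CPM in osteoblasts and 6844 CPM in BMSCs, and median depth was 21559 UMIs in osteoblasts and 7355 in BMSCs. The part of collagen transcripts in the lower CPM was not tested.

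*Sost* had 0 UMIs over all barcodes of both libraries, including those that failed the cell filter. The exact interval for the share of cells with a UMI reaches 2.43% of *Pi16*-type callus cells, 10.6% of BMSCs and 13.2% of callus osteoblasts. Osteocytes, its known source, were not among the gated types.

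The rest of the Wnt pathway gives the setting of these levels. In *Pi16*-type cells, 5 of 12 Wnt ligands had 20 UMIs, 1 was at least 2-fold lower in the callus and 0 higher, with a median log2 ratio of −0.51. Of all 9168 genes compared, 2.68% were lower and 3.69% higher, with a median of 0.03. *Wnt11*, a ligand of β-catenin-independent signalling, was the ligand that passed, at 63.4 CPM intact (103 UMIs) and 23.5 CPM in the callus (27 UMIs), 0.37-fold (0.23 to 0.57). The others named by their abundance were *Wnt2* at 105 and 57.3 CPM, *Wnt5a* at 131 and 92.1 CPM, and *Wnt10b* at 70.1 and 49.5 CPM, each within 2-fold. Not all fibroblasts carried them. *Wnt2* and *Wnt10b* had 0 UMIs in intact *Col15a1*-type cells and in BMSCs.

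Of the 21 receptors and coreceptors, 14 had 20 UMIs in *Pi16*-type cells and 1 (*Fzd5*, from 10 and 16 UMIs) was at least 2-fold higher in the callus, with a median of 0.44. Of all genes compared, 3.69% were higher, with a median of 0.03. *Lrp6*, the coreceptor that *Dkk2* binds, was at 119 CPM intact and 170 CPM in the callus, *Ryk*, a Wnt-binding receptor, at 99.0 and 123 CPM, and *Fzd2* at 53.5 and 93.8 CPM. *Kremen1*, a coreceptor of Dkk proteins, was at 25.2 and 34.8 CPM, *Lgr4*, a receptor of R-spondins, at 28.9 and 42.6 CPM, and *Fzd1*, *Fzd4* and *Fzd7* at 36.3 and 46.1, 46.8 and 49.5, and 20.9 and 26.9 CPM. None of the 6 intracellular and target genes with 20 UMIs was 2-fold apart, with a median of −0.05. β-catenin itself (*Ctnnb1*) was at 139 and 137 CPM, *Gsk3b* at 188 and 177, *Tcf7l2* at 169 and 150, *Tcf7l1* at 108 and 69.5, *Apc* at 59.7 and 70.4 and *Axin1* at 27.1 and 28.7 CPM. Of the 7 other extracellular antagonists, 5 had 0 UMIs in these cells and 1 had 20 UMIs, and of the 4 R-spondins 1 had 20 UMIs, none of them 2-fold apart.

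**Figure D4:**
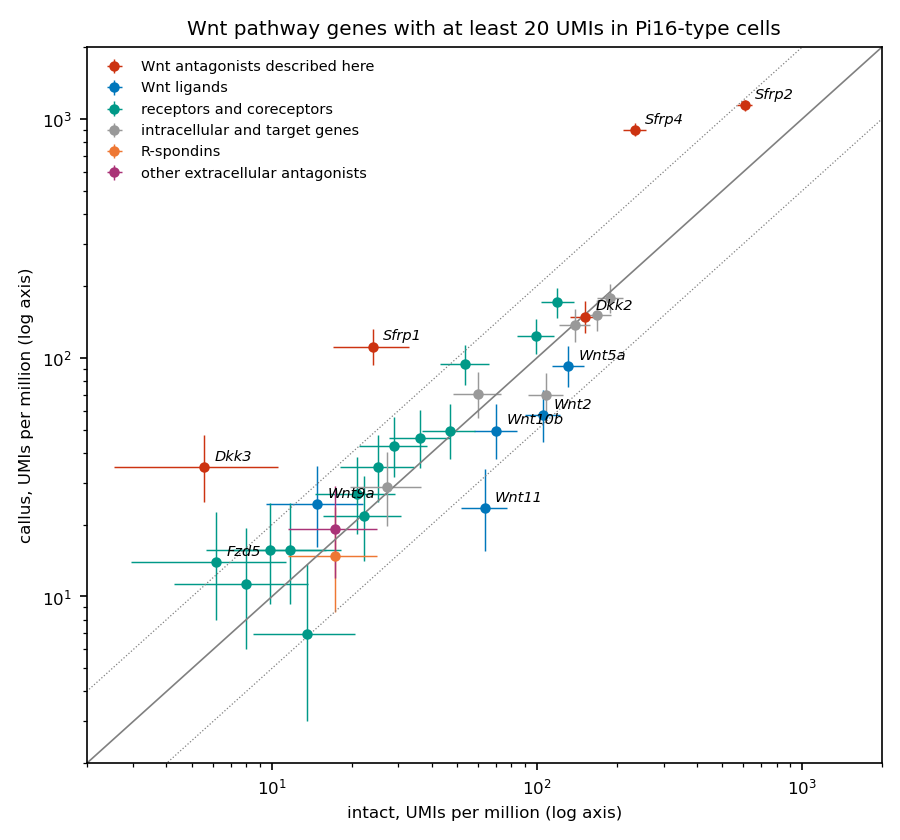
Each point is a Wnt pathway gene with at least 20 UMIs in *Pi16*-type cells, with its intact level on the x axis and its callus level on the y axis, both in CPM on log axes, and 95% Poisson intervals. Dotted lines mark 2-fold. *Sfrp1*, *Sfrp4* and *Dkk3* lie above the upper line, *Dkk2* on the diagonal, and *Wnt11* below the lower line at 23.5 CPM in the callus.

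In *Col15a1*-type cells, 3 of the 6 receptors with 20 UMIs were at least 2-fold higher in the callus, where 8.91% of all genes were higher and the callus and intact cells lay mostly in different clusters (4 and 0), among them *Lrp6* at 113 and 307 CPM and *Fzd4* at 72.2 and 162 CPM, and *Ctnnb1* was at 65.9 and 239 CPM. Against *Pi16*-type callus cells, BMSCs were at least 2-fold higher in both R-spondins with 20 UMIs, in 4 of 13 receptors (1 lower) and in 1 of 6 ligands (4 lower). Of all 7759 genes compared, 15.7% were higher and 14.7% lower. BMSCs, the gated type highest in *Wif1*, also carried the R-spondin *Rspo3*, which amplifies Wnt signals. It was at 502 CPM against 14.8 CPM in *Pi16*-type callus cells, 34.0-fold higher (20.4 to 60.1). Their *Lrp4*, a receptor that anchors sclerostin, was at 209 CPM and their *Fzd5* at 162 CPM, against 1.74 and 13.9 CPM. *Rspo3*, *Lrp4* and *Fzd5* each had under 20 UMIs in *Pi16*-type callus cells, so they reached the threshold through the BMSCs. Of 7 receptors compared between osteoblasts and BMSCs, 4 were lower in osteoblasts and 0 higher, where 40.4% of all genes were lower. In osteoblasts *Rspo3* was at 1.84 CPM, *Lrp4* at 60.8 and *Fzd5* at 51.6 CPM.

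Across the 6 groups of at least 15 cells (both fibroblast types in both libraries, BMSCs and osteoblasts of the callus), the genes most like each member were ranked by Pearson correlation of log2(CPM + 10) among 5968 genes. With 6 groups, 4 of them fibroblasts, and 5968 genes, high values are common, so these are descriptions. The pattern of *Wif1* was closest to *Tnfrsf19* (r = 1.00), *Adamts9* (r = 0.995) and *S1pr1* (r = 0.994). *Dkk2* was closest to *Clec3b* itself (r = 0.999), *Gpc3* (r = 0.999) and *Cd34* (r = 0.998). The nearest to *Sfrp1* were *Herc1*, *Ppp6r3* and *Stk11*, to *Sfrp2* *Hars*, *Orc2* and *Zfas1*, to *Sfrp4* *Psmb7*, *Cul7* and *Rps16*, and to *Dkk3* *Baz2b*, *Dnajc14* and *Gtpbp2*, with r between 0.946 and 0.997. Of these 18 genes, 8 were again among the nearest with 1 CPM added in place of 10.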

How the data were processed

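The authors sequenced 2 10× Chromium 3′ v3 libraries and deposited raw UMI counts per gene and barcode as filtered matrices. Per the file headers these came from Cell Ranger 6.0.0, and per the labels the build was mm10. Kept were 1207 of 1872 intact barcodes and 3295 of 3987 callus barcodes, those with 500 or more genes and no more than 10% of UMIs mitochondrial. The matrices held 12112002 and 36714322 UMIs before this filter.

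Cells were given a class where they carried at least 5 of its 10 markers and led any other class by 2, and cells that reached 5 markers in more than 1 class (13 intact and 133 callus) were set aside. Stromal cells were given a type from at least 3 of its 8 markers with a lead of 1. These gates cut a score, and cells near a threshold change type when it moves. Counts were summed per type and library and divided by the type's total UMIs. Intervals are exact Poisson (levels), Clopper-Pearson (shares) and conditional binomial (ratios) at 95%, and cover counting error only. A ratio against 0 UMIs used 3 UMIs over the group. A gene was compared with at least 20 UMIs over both groups and counted past 2-fold. With 1 library per condition no p-value was computed. The steps were tested on simulated counts.

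Stromal cells were clustered with scanpy 1.11.5 (Leiden, resolution 0.5, 30 principal components, 15 neighbours). Scrublet called 3 intact and 4 callus cells, too few to count as working, so no doublet was removed in the values given, and cells of 2 classes stayed out of every type. Genes of the 5 Wnt pathway lists were named with at least 100 UMIs over the stromal cells, or with 50 UMIs in a type and 2-fold apart between libraries, and the 3 most correlated genes were named for each member with enough UMIs. The 8 genes, marker lists and pathway lists were chosen with earlier results of these data known. Promoters came from RefSeq on GRCm38.p6, and gene positions from GENCODE on GRCm38. The alternatives tried were 2 other cell filters, a stricter gate, Leiden clusters as types, removal of the cells with the highest Scrublet scores, the mean of each cell's own CPM, shares without thinning or from at least 2 UMIs, a fold of 1.5, and 1 CPM added before the correlations. Leaving out the cell richest in a gene, and fibroblasts with no tenocyte marker, were chosen after seeing the data.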

Additional observations from a re-analysis of the deposited data

Results flagged for a closer look

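The direction of *Sfrp2* between callus and intact cells differed between fibroblast groups. On the log2 scale the ratio of the *Pi16*-type was 0.91, and that of the *Col15a1*-type was −1.97. Among clusters it was 1.54 in cluster 1, 1.30 in cluster 0, −0.49 in cluster 2 and −1.31 in cluster 4. Each condition is 1 library, so the difference between groups was not tested. In *Col15a1*-type cells 1 intact cell held 90.1% of the UMIs, in cluster 0 1 callus cell held 94.4%, and in cluster 4 1 intact cell held 27.4%. Other intact cells of cluster 4 held 120 and 91 of its 544 intact *Sfrp2* UMIs.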

How the results depend on the processing

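The higher *Sfrp1* and *Sfrp4* of callus *Pi16*-type cells kept their direction and stayed past 2-fold under 8 alternatives. *Dkk3* did so under 6, and fell under 20 UMIs with Leiden clusters and in fibroblasts with no tenocyte marker, where the count of members 2-fold apart was 2 in place of 3. On the log2 scale the ratio ran from 2.04 to 2.73 for *Sfrp1*, from 1.04 to 1.97 for *Sfrp4* (1.95 as reported) from 0.59 to 1.00 for *Sfrp2*, and from −0.60 (Leiden clusters) to 0.26 (stricter gate) for *Dkk2*. Of 66 alternative ratios of members 2-fold apart that kept 20 UMIs, 64 had the same direction and 63 were still past 2-fold. Ratios that fell under 20 UMIs are not counted. Among these was *Sfrp2* of *Col15a1*-type callus against intact cells without the richest cell.

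Values in *Col15a1*-type cells depended more on the gates. *Sfrp2* of callus against intact cells, −1.97 as reported, was 2.93 with 1 more marker and a wider lead and 1.30 with Leiden clusters as types, where *Sfrp1* was 0.43 in place of 1.55 and the count of members 2-fold apart 2 in place of 3. The count of members 2-fold apart between *Col15a1*-type and *Pi16*-type callus cells, 1 as reported, was 3 with the stricter gate, 3 with Leiden clusters, 4 at a fold of 1.5 and 4 in fibroblasts with no tenocyte marker. That of *Col15a1*-type callus against intact cells, 3 as reported, was 1 in fibroblasts with no tenocyte marker. The cause was not tested. No paired analysis was possible because each condition has 1 library of pooled mice. Depth limits *Frzb*, *Dkk3* and the small types most, and intervals leave out differences between mice.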

Other observations

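Cells that carried markers of more than 1 class, and so belonged to no type, held antagonist UMIs too. The 133 such callus cells held 104 UMIs of *Sfrp2*, 49 of *Sfrp4*, 18 of *Sfrp1*, 18 of *Dkk2*, 15 of *Wif1* and 10 of *Dkk3*. The 13 such intact cells held 7 UMIs of *Dkk2* and 5 of *Sfrp2*. Among 251 callus cells with no class, *Sfrp4* had 13 UMIs. The 31 cells of cluster 3, led by *Akr1c18* and *Krtdap* and shallow at a median of 3015 UMIs, carried *Sfrp2* at 691 CPM in 21 intact cells and 902 CPM in 10 callus cells, and *Sfrp4* at 240 and 468 CPM.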
